A study of Sus scrofa with 24 samples.

Results

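Cells recognise DNA and RNA that turn up in the cytosol, where little should be found, through a small set of sensor proteins. The DNA sensors IFI16, DDX41 and cGAS act through the adaptor STING, encoded by TMEM173, and the RNA sensors act through the mitochondrial adaptor MAVS. Both adaptors recruit the kinase TBK1, which activates the transcription factor IRF3 and so the type I interferon genes. A second branch assembles inflammasomes, in which a sensor such as NLRP3 joins the adaptor ASC, encoded by PYCARD, and activates caspase-1, encoded by CASP1, the protease that matures interleukin-1 beta and interleukin-18.

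Expression of these 9 genes (IFI16, DDX41, TMEM173, MAVS, TBK1, IRF3, NLRP3, PYCARD and CASP1) was examined in the utero-tubal junction (UTJ) of the sow, which joins the uterine horn to the oviduct and stores sperm. A gene was represented by a probe set, a group of oligonucleotides on the Affymetrix Porcine Gene 1.0 ST array, when the array annotation gave that probe set this gene's symbol and no other. By this rule 5 of the 9 genes were measured, with 6 probe sets of the 27558 on the array: TMEM173 (probe set 15259657), MAVS (15248572), IRF3 (15297666 and 15297671), NLRP3 (15265342) and CASP1 (15330152). In all, 12365 genes were named in this way by 13327 probe sets. IRF3 was represented by the probe set with the higher mean over all arrays, here called the first, and the other is given beside it. No probe set carried the symbol IFI16, DDX41, TBK1 or PYCARD.

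All tissue came from weaned Swedish Landrace sows in oestrus. Control sows had received 50 ml of Beltsville Thawing Solution (BTS), a semen extender, mated sows had been served by a boar, and SP-infused sows had received 50 ml of sperm-free seminal plasma (SP). Each group had 8 arrays. Tissue was collected within 24 h by the labels, and 24 h after the treatment by the study's methods, where the design in addition calls control females unmated and not inseminated. A group held 4 sows, each with a left and a right UTJ. The labels do not tie arrays to sows, so each array was tested as a separate unit, and the p-values may be too small where arrays share a sow. Every direction below rests on the labels of the arrays, and no gene measured here marks a treatment by which the labels could be checked. Values are log2 intensities on which a difference of 1 is a doubling.

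The RNA came from whole tissue, and a lower value can come from fewer cells of a type or from less RNA per cell, which cannot be told apart here. Of the defining markers of the tissue, the smooth muscle gene ACTA2 ranged from 11.30 to 12.33 over the arrays, the ciliated cell gene FOXJ1 from 6.56 to 8.20 and the epithelial gene EPCAM from 8.59 to 10.42. OVGP1, which encodes the secreted oviductal glycoprotein, ranged from 4.49 to 11.94. Array medians were between 5.75 and 5.99, and the spread of values was smallest in control replicate 1 (SD 1.91, against at most 2.14 elsewhere).

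Differences were tested with limma over all 24 arrays, with Benjamini-Hochberg adjustment over the 27558 probe sets. No probe set of the array passed an adjusted p under 0.05 between mated and control (0%), between SP-infused and control (0%) or between mated and SP-infused (0%), and the lowest adjusted p was 0.128, 0.891 and 0.998. At an unadjusted p under 0.05, 3142, 1420 and 920 probe sets were counted. Over the 12365 genes, 2.92% (361) were higher and 7.31% (904) lower in mated than in control arrays at this level. In the SP-infused arrays 1.51% (187) were higher and 3.02% (374) lower than in control, and between mated and SP-infused 1.54% (190) were higher and 1.77% (219) lower in mated. These splits depended on scaling. With equal array medians the higher and lower counts were 735 and 427, 291 and 236, and 319 and 135, and with cyclic loess 568 and 547, 270 and 240, and 239 and 248.

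None of the 5 measured genes changed between groups at an adjusted p under 0.05. Their adjusted p-values lay between 0.455 and 0.914 for mated against control, between 0.891 and 0.994 for SP-infused against control, and at 0.998 for mated against SP-infused. At an unadjusted p under 0.05, 0 of 5 differed from control in the mated arrays and 0 of 5 in the SP-infused arrays, and 1 of 5, TMEM173, was higher in mated than in SP-infused arrays. Of the 5 genes, 3 had the higher mean in the first group and 2 the lower in each comparison. The median difference was 0.10, 0.05 and 0.06, where that of all genes was -0.04, -0.03 and -0.01. The ranges of the groups overlapped for every gene in every comparison.

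**Figure D1:**
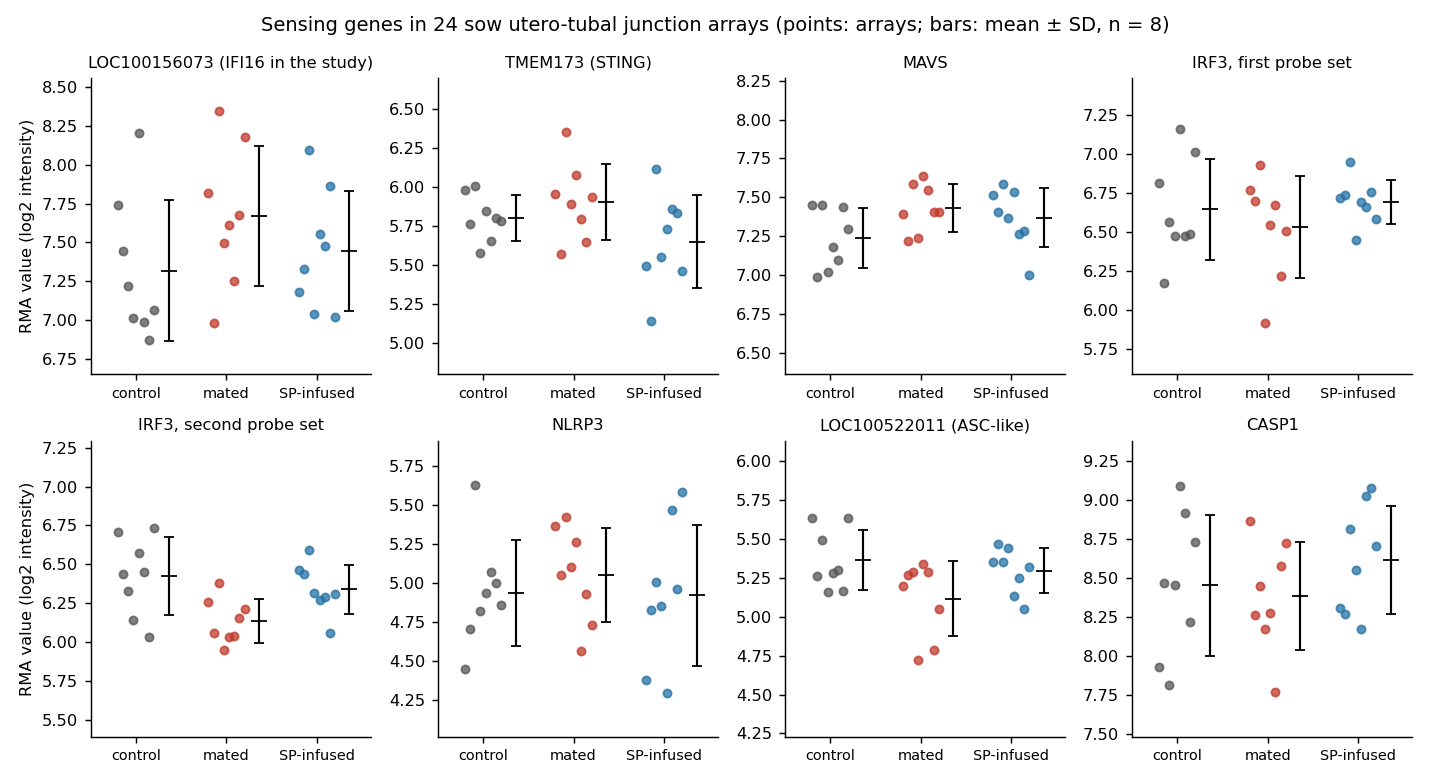
RMA values (log2 intensity) of 8 probe sets in the 8 control, 8 mated and 8 SP-infused arrays, with 1 point per array and the mean ± SD beside it. Each panel spans the same number of log2 units, and in all panels the points of the 3 groups overlap. The 2 probe sets whose symbol begins with LOC stand outside the symbol rule.

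IFI16 binds DNA through its HIN domains, in the nucleus as well as in the cytosol. The study's own tables give this name to the gene that the array annotation lists as LOC100156073 (probe set 15284831). It was described here although its symbol is another, and, since those tables hold genes selected on these same arrays, its values are no independent evidence of a direction. In the Sscrofa11.1 assembly of the pig the gene lies between CADM3 and LOC110260313, and its model overlaps those of LOC110260314, a pseudogene, and LOC100154852, so its signal is uncertain to that extent. LOC100154852 had a probe set of its own with a mean value of 3.07, and its r with LOC100156073 was 0.26 over the 24 arrays.

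In control arrays LOC100156073 had values from 6.87 to 8.20 with a median of 7.14. In mated arrays they ran from 6.98 to 8.34 with a median of 7.64. The SP-infused values lay between 7.02 and 8.10 with a median of 7.40. Control replicate 5, mated replicate 3 and SP-infused replicate 3 were the highest of their groups, and all groups overlapped. The mean was 7.32 ± 0.45 (SD, n = 8 arrays) in control, 7.67 ± 0.45 in mated and 7.45 ± 0.39 in SP-infused arrays. The mated mean was thus above the control mean by 0.35 (SE 0.20, 95% interval -0.07 to 0.77), a fold of 1.28 (0.953 to 1.71), with 7 of 8 mated arrays above the control median. This difference did not pass (adjusted p = 0.52 with limma, two-sided exact permutation p = 0.14). The SP-infused mean was above control by 0.13 (interval -0.29 to 0.55, exact permutation p = 0.554), and mated was above SP-infused by 0.22 (interval -0.20 to 0.64, exact permutation p = 0.295). The order of the means was control, SP-infused, mated, and no neighbours in it differed beyond their spread. Single arrays weighed on the mated difference, which was 0.48 without control replicate 5 and 0.45 without mated replicate 2, both with an unadjusted p under 0.05, and 0.25 without mated replicate 3.

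STING, the product of TMEM173, sits in the endoplasmic reticulum and binds the cyclic dinucleotide made by cGAS. TMEM173 values ran from 5.58 to 6.01 in control arrays (median 5.79), from 5.57 to 6.36 in mated arrays (median 5.91) and from 5.14 to 6.12 in SP-infused arrays (median 5.64). The control arrays were the closest together, and the lowest values of all 24 arrays were among the SP-infused. Means were 5.80 ± 0.15, 5.90 ± 0.25 and 5.65 ± 0.30. Neither treated group was separated from control, with differences of 0.10 for mated (SE 0.12, interval -0.14 to 0.35, exact permutation p = 0.336) and -0.15 for SP-infused (interval -0.40 to 0.09, exact permutation p = 0.221). The mated mean was above the SP-infused mean by 0.26 (interval 0.01 to 0.50), a fold of 1.19. For this difference limma gave an unadjusted p of 0.0435 and an adjusted p of 0.998, and the exact permutation test over all splits of the arrays gave p = 0.0848. It was 0.19 without mated replicate 3 and 0.18 without SP-infused replicate 2. The unadjusted p stayed under 0.05 in 15 of the 24 fits that left out 1 array. The T and NK cell markers had the same tilt: 10 of 12 had the higher mean in mated than in SP-infused arrays, with a median difference of 0.23, and their mean level, each marker taken relative to its mean over the arrays, spanned -0.59 to 0.78 in the mated arrays and -0.43 to 0.30 in the SP-infused. Of 11 macrophage and monocyte markers 9 did so (median 0.18). Among all genes 46.3% had the higher mean in mated than in SP-infused arrays. The T and NK markers CD3G, CD4, CD8A, GZMK, KLRK1 and PRF1 and the macrophage marker CD14 had mean values below 5. The part of these cells in the TMEM173 values was not tested.

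MAVS forms filaments on the outer mitochondrial membrane once RIG-I or MDA5 has bound RNA. MAVS values ran from 6.99 to 7.45 in control arrays (median 7.24), from 7.22 to 7.64 in mated arrays (median 7.41) and from 7.00 to 7.59 in SP-infused arrays (median 7.39). The lowest mated array, at 7.22, still lay within the control range, as did the lowest SP-infused array. Means were 7.24 ± 0.19, 7.43 ± 0.15 and 7.37 ± 0.19 in the order control, mated and SP-infused. Among the 5 genes MAVS had the lowest p for mated against control, with a difference of 0.19 (SE 0.09, interval -0.01 to 0.39), a fold of 1.14. Neither the fit (adjusted p = 0.455) nor the exact permutation test (p = 0.0502) passed, and the unadjusted p was under 0.05 in 6 of the 24 fits that left out 1 array. SP-infused arrays were 0.13 above control (interval -0.07 to 0.32, exact permutation p = 0.196), and mated arrays were 0.06 above SP-infused (exact permutation p = 0.492). All 6 endothelial markers measured also had the higher mean in mated than in control arrays (median 0.32), beside 41.5% of all genes. With limma 3 of the 6 (CLDN5, PECAM1 and TEK) had an unadjusted p under 0.05, beside 2.92% of all genes higher. After adjustment 0 of the 6 did. The level of the endothelial list had an r of 0.37 with MAVS over the 24 arrays (rho 0.19). This r was 0.16 with the group means subtracted and 0.24 without the 2 farthest arrays. All 5 ciliated markers had the lower mean in mated than in control arrays (median -0.31), beside 58.5% of all genes. The level of the ciliated list had an r of 0.24 with MAVS, and 0.37 with the group means subtracted. The part of vessels or ciliated cells in the MAVS values was not tested.

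IRF3 is phosphorylated by TBK1, moves to the nucleus and binds the promoter of the interferon beta gene. On its first probe set the values ran from 6.17 to 7.16 in control arrays (median 6.53), from 5.91 to 6.93 in mated arrays (median 6.61) and from 6.45 to 6.95 in SP-infused arrays (median 6.70). The SP-infused arrays were the most alike (SD 0.14), and the mated and control arrays spread more widely (SD 0.33 in both). The differences were -0.11 for mated (interval -0.39 to 0.17, exact permutation p = 0.501), 0.05 for SP-infused (interval -0.23 to 0.33, p = 0.715) and -0.16 for mated against SP-infused (p = 0.243). The second probe set gave another picture. It ran from 6.03 to 6.73 in control arrays (median 6.44), from 5.95 to 6.38 in mated arrays (median 6.11) and from 6.06 to 6.59 in SP-infused arrays (median 6.31). All 8 mated arrays lay below the control median, though the ranges overlapped. The mated mean was lower than control by 0.29 on the log2 scale (log2 difference -0.29, SE 0.10, interval -0.49 to -0.08, adjusted p = 0.349, exact permutation p = 0.016), and its unadjusted p was under 0.05 in 24 of the 24 fits that left out 1 array. Against SP-infused the difference was -0.20 (adjusted p = 0.998, exact permutation p = 0.0182). The permutation split arrays and not sows, so its p-values may be too small. A fit without 1 array may keep the other side of the same sow. Both probe sets had the lower mean in mated than in control arrays, only the second with an unadjusted p under 0.05, and their values had an r of 0.56 over the 24 arrays. For SP-infused against control they differed in sign, 0.05 and -0.08, with neither passing.

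NLRP3 responds to many kinds of cell damage, ATP among them. Its mean value was below 5, and its gene model overlaps that of LOC106507305. Values ran from 4.45 to 5.63 in control arrays (median 4.89), from 4.56 to 5.42 in mated arrays (median 5.08) and from 4.29 to 5.58 in SP-infused arrays (median 4.91). SP-infused arrays held both the lowest value of the 24 and, after control replicate 3, the highest. Means were 4.93 ± 0.34, 5.05 ± 0.30 and 4.92 ± 0.45. The differences from control were 0.12 for mated (interval -0.25 to 0.49, exact permutation p = 0.465) and -0.01 for SP-infused (interval -0.38 to 0.35, p = 0.946). The sign of the second turned with equal array medians and with cyclic loess.

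ASC links NLRP3 to caspase-1. The study's tables describe LOC100522011 as an apoptosis-associated speck-like protein, words that are part of the full name of ASC. Whether it is PYCARD was not tested, and those tables again list genes selected on these arrays. LOC100522011 values ran from 5.16 to 5.64 in control arrays (median 5.29), from 4.72 to 5.34 in mated arrays (median 5.23) and from 5.05 to 5.47 in SP-infused arrays (median 5.34). Mated replicates 4 and 7 were the lowest of all arrays. The mated mean was lower than control by 0.25 on the log2 scale (log2 difference -0.25, SE 0.10, interval -0.46 to -0.04, adjusted p = 0.385, exact permutation p = 0.0416). The unadjusted p was no longer under 0.05 without control replicate 8, mated replicate 4 or mated replicate 7, with differences from -0.19 to -0.21. Nor was it with equal array medians (-0.19), cyclic loess (-0.15) or array weights (-0.19). SP-infused arrays differed from control by -0.07 (exact permutation p = 0.423).

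CASP1 values were the most spread of the 5 genes within the control group. They ran from 7.81 to 9.09 in control arrays (median 8.46), from 7.77 to 8.87 in mated arrays (median 8.36) and from 8.17 to 9.08 in SP-infused arrays (median 8.63). Control arrays thus covered nearly the whole range of the 24. Means were 8.45 ± 0.45, 8.39 ± 0.35 and 8.62 ± 0.35. The differences were -0.07 for mated (interval -0.44 to 0.31, exact permutation p = 0.745), 0.16 for SP-infused (interval -0.21 to 0.54, p = 0.425) and -0.23 for mated against SP-infused (interval -0.61 to 0.15, p = 0.209). The sign of the mated difference turned without any 1 of 3 arrays.

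**Figure D2:**
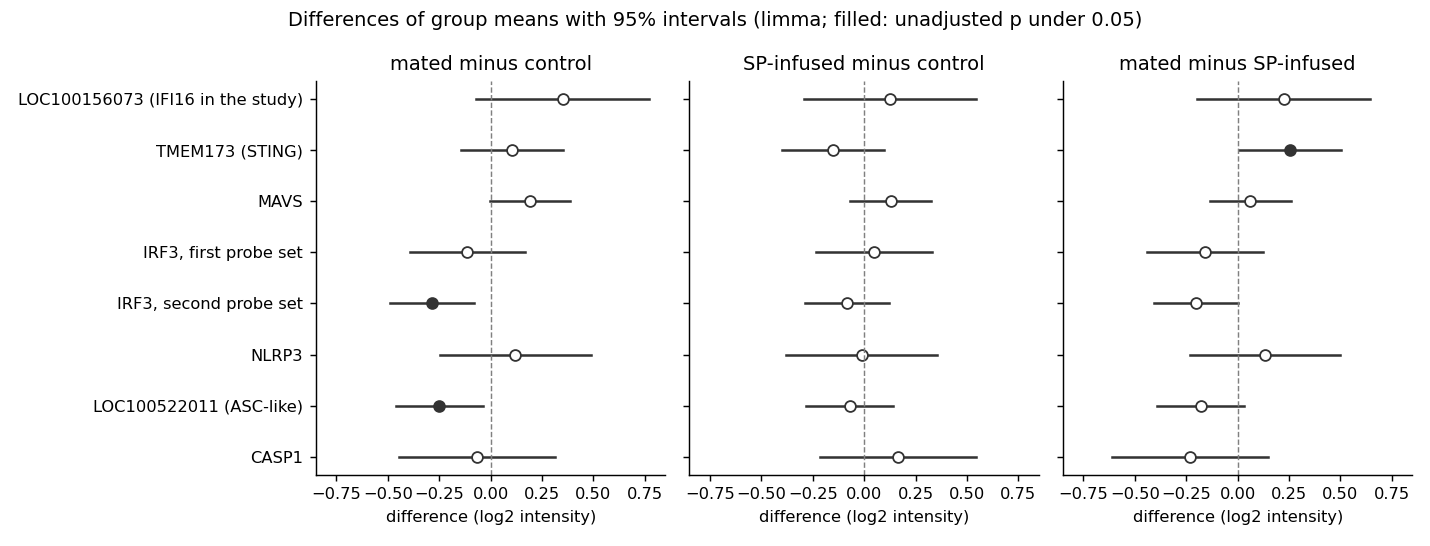
Differences of group means (log2 intensity, x axis) for 8 probe sets in 3 comparisons, with limma's 95% intervals; filled points have an unadjusted p under 0.05. The filled points are the second IRF3 probe set (-0.29) and LOC100522011 (-0.25) for mated minus control and TMEM173 (0.26) for mated minus SP-infused, and none had an adjusted p under 0.05.

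The wider pathway was described with 126 symbols in 7 lists, of which 82 genes were measured. None of the 82 had an adjusted p under 0.05 in any comparison. At an unadjusted p under 0.05, 1 gene was higher and 6 were lower in mated than in control arrays, 8.54% of 82, where 2.92% of all genes were higher and 7.31% lower. In SP-infused arrays 0 were higher and 4 lower than in control, 4.88% of 82, where 1.51% of all genes were higher and 3.02% lower. The median difference over the 82 genes was -0.07 for mated and -0.04 for SP-infused, beside -0.04 and -0.03 over all genes. With equal array medians these list medians were -0.0060 and -0.0029, beside 0.02 and 0.01 over all genes. With cyclic loess they were -0.03 and -0.03, beside 0.0031 and 0.0060 over all genes. There 52 of 82 had the lower mean in SP-infused arrays, beside 48.0% of all genes. As deposited, 59.8% of the 82 had the lower mean in mated arrays and 67.1% in SP-infused arrays, beside 58.5% and 57.7% of all genes. The counts of lower means in the single lists below stand beside these shares of all genes, which were 43.9% and 47.6% with equal array medians.

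The kinases and transcription factors of interferon induction had the lowest list medians in both comparisons with control. Of 13 genes 10 had the lower mean in mated arrays (median -0.16) and 12 in SP-infused arrays (median -0.14). With equal array medians these were 10 and 10 of 13 (medians -0.10 and -0.11), and with cyclic loess 9 and 11. IRF7, the interferon regulatory factor that amplifies the type I interferon response, had means of 6.10 ± 0.20 in control, 5.82 ± 0.15 in mated and 5.89 ± 0.19 in SP-infused arrays. Its difference from control was -0.27 for mated (SE 0.10, adjusted p = 0.349) and -0.20 for SP-infused (adjusted p = 0.891). RELA, the p65 subunit of NF-kappaB, was at 8.01 ± 0.25 in control, 7.79 ± 0.13 in mated and 7.83 ± 0.18 in SP-infused arrays. Its differences from control were -0.22 for mated (adjusted p = 0.42) and -0.18 for SP-infused (adjusted p = 0.891). With equal array medians the p of RELA for mated against control was 0.102 and the p of IRF7 for SP-infused was 0.0891. Neither was under 0.05 with cyclic loess or without control replicate 1 either. Both comparisons share the same control arrays.

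Among 14 measured DNA sensors and partners, 8 had the higher and 6 the lower mean in mated arrays (median 0.02), and 0 had an unadjusted p under 0.05 in any of the 3 comparisons. Without control replicate 1 the mated split turned to 6 higher and 8 lower (median -0.05). The 2 lowest p-values for mated against control were those of RAD50, a subunit of the break repair complex (0.31, adjusted p = 0.512), and HMGB1, an abundant chromatin protein released from dying cells (-0.19, adjusted p = 0.569). For SP-infused they were RAD50 (0.26, adjusted p = 0.891) and POLR3A, the largest subunit of RNA polymerase III (0.12, adjusted p = 0.891). The cGAS gene, under its older symbol MB21D1, was at 5.89 ± 0.28 in control, 5.66 ± 0.31 in mated and 5.74 ± 0.46 in SP-infused arrays.

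Of 9 measured RNA sensors and helpers, 8 had the lower mean in mated arrays (median -0.09), beside 58.5% of all genes. With equal array medians 7 of 9 did (median -0.03), and with cyclic loess 6 (median -0.09). At an unadjusted p under 0.05, 1 of 9 was lower, beside 7.31% of all genes. This was G3BP1, a stress granule protein, at 8.96 ± 0.21 in control and 8.61 ± 0.25 in mated arrays, a difference of -0.35 (SE 0.13, adjusted p = 0.362). The next was ZCCHC3, a helper of RIG-I-like receptors, at -0.14 (adjusted p = 0.681) and a mean value below 5. In SP-infused arrays 6 of 9 had the lower mean (median -0.01), which turned to 3 of 9 (median 0.03) with equal array medians, and 0 had an unadjusted p under 0.05, with G3BP1 at -0.18 (adjusted p = 0.891) and RNF135, a ubiquitin ligase of RIG-I, at 0.12 (adjusted p = 0.896).

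Of 12 regulators of STING and MAVS, 3 were lower in mated than in control arrays at an unadjusted p under 0.05 and 0 were higher, beside 7.31% and 2.92% of all genes. With cyclic loess 2 were lower, without NLRC3, and with equal array medians TRAF6 joined as 1 higher gene. TRAF2, a signalling adaptor, differed by -0.25 (-0.15 with cyclic loess, SE 0.09 as deposited, adjusted p = 0.349). NLRC3, which restrains STING, differed by -0.24 (-0.14 with cyclic loess, adjusted p = 0.357), at a mean value below 5. RHBDF2, which encodes iRhom2, a partner of STING trafficking, differed by -0.26 (adjusted p = 0.37). In SP-infused arrays 0 of 12 reached this level. The lowest p-values were those of RNF125, a ubiquitin ligase acting on RIG-I and MAVS (-0.22, adjusted p = 0.891), and ENPP1, which breaks down the STING ligand cGAMP (-0.45, adjusted p = 0.891).

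Of 9 nucleases and nucleotide pool enzymes 4 were measured, and 1 in each comparison with control had an unadjusted p under 0.05. Of all genes 2.92% were higher and 7.31% lower for mated, and 1.51% and 3.02% for SP-infused. With cyclic loess the SP-infused count was 0, and without control replicate 1 the mated count was 2, with RNASEH2C lower. DNASE2, the lysosomal DNase, stood 0.25 above control in mated arrays (adjusted p = 0.424) and 0.16 above in SP-infused arrays (adjusted p = 0.891). DNASE1L3, a secreted DNase, differed from control by -0.47 in SP-infused arrays (-0.39 with cyclic loess, adjusted p = 0.891), at a mean value below 5. RNASEH2C, a subunit of RNase H2, differed from control by -0.19 in mated arrays (adjusted p = 0.537).

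Of 10 measured inflammasome genes, 7 had the lower mean in mated arrays (median -0.09) and 10 in SP-infused arrays (median -0.10). The second count was 9 with equal array medians and 8 with cyclic loess. The mated median was -0.03 with equal array medians, where P2RX7 was higher at an unadjusted p under 0.05, -0.0085 with cyclic loess and -0.01 without control replicate 1. NEK7, the kinase-fold partner that NLRP3 needs, was at 8.82 ± 0.23 in control, 8.70 ± 0.24 in mated and 8.52 ± 0.20 in SP-infused arrays. Its difference for SP-infused was -0.30 (SE 0.11, adjusted p = 0.891). GSDMD, the pore protein cut by caspase-1, differed by -0.17 in SP-infused arrays (adjusted p = 0.891). The 2 lowest p-values for mated against control were those of P2RX7, an ATP-gated channel (0.21, adjusted p = 0.551), and IL18, a caspase-1 substrate (0.26, adjusted p = 0.602).

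Of 20 measured interferons, receptors and targets, 12 had the higher mean in mated arrays (median 0.06) and 9 in SP-infused arrays (median -0.02). At an unadjusted p under 0.05, 0 of 20 differed for mated, where 2.92% of all genes were higher and 7.31% lower. For SP-infused 1 of 20 was lower, where 1.51% of all genes were higher and 3.02% lower. This was IFIT2, an interferon-induced RNA-binding protein, with 6.94 ± 1.02 in control, 6.55 ± 0.61 in mated and 6.03 ± 0.26 in SP-infused arrays and a difference of -0.91 (SE 0.33, adjusted p = 0.891). IFNB1, the interferon beta gene itself, was at 2.85 ± 0.24 in control, 2.61 ± 0.19 in mated and 2.64 ± 0.29 in SP-infused arrays, with differences of -0.24 (adjusted p = 0.453) and -0.21 (adjusted p = 0.891). Its mean, like that of IFNG, was well below the low-value limit of 5, so these differences say little. STAT2, which carries the interferon receptor's signal, stood 0.28 above control in mated arrays (adjusted p = 0.531). Without control replicate 1 the median of this list was -0.05 for mated and -0.13 for SP-infused, so its sign for mated turned with 1 array.

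**Figure D3:**
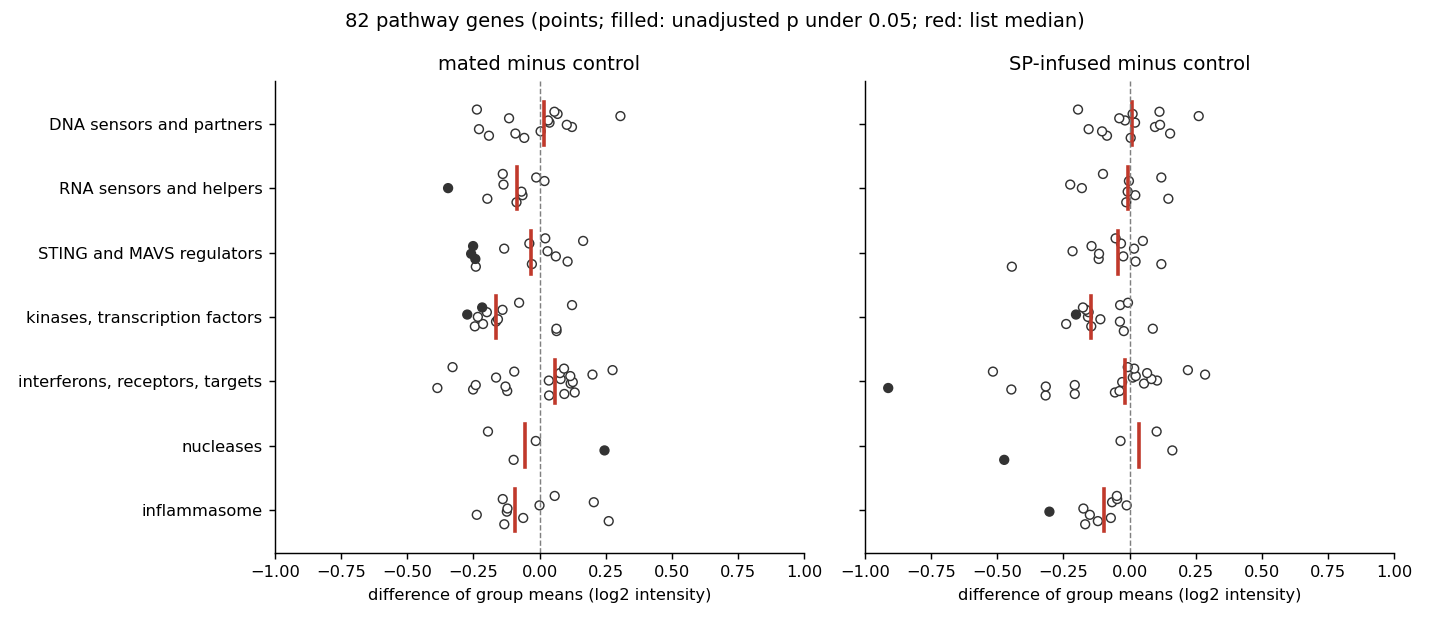
Differences from control (log2 intensity, x axis) of 82 pathway genes in 7 lists for mated and SP-infused arrays, with 1 point per gene, filled where the unadjusted p was under 0.05, and the list median in red. The kinases and transcription factors lie furthest to the left for both (medians -0.16 and -0.14), and IFIT2 (-0.91) is the lowest gene for SP-infused.

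Between mated and SP-infused arrays, 2 of the 82 genes were higher and 1 lower at an unadjusted p under 0.05, 3.66% of 82, beside 1.54% and 1.77% of all genes. P2RX7 was 0.27 above and RNF125 0.25 above in mated arrays, and RNASEH2C differed by -0.30, each with an adjusted p of 0.998. These 3 genes and TMEM173 kept an unadjusted p under 0.05 with equal array medians and with cyclic loess.

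Part of the variation of the sensing genes among arrays went with cell type markers. The level of a marker list was the mean over its genes of the value minus that gene's mean over the arrays. The list called secretory epithelium held OVGP1, MUC1, EPCAM, KRT8, KRT18 and KRT19. EPCAM and the keratins are general epithelial genes, so the level of this list is not particular to secretory cells. OVGP1 had the widest range of these markers. The correlations that follow are descriptions over 24 arrays, some of which share a sow. LOC100156073 had an r of 0.62 (rho 0.63) with the 6 markers of the secretory list and 0.59 (rho 0.59) with 5 ciliated cell markers. With the group means subtracted they were 0.66 and 0.74, and without the 2 arrays farthest from the median level 0.64 and 0.41. It had an r of 0.54 with T and NK cell markers and -0.42 with smooth muscle markers. CASP1 had an r of 0.70 (rho 0.67) with the secretory markers and -0.61 (rho -0.64) with 4 smooth muscle markers, and 0.65 and -0.48 without the 2 farthest arrays. TMEM173 had its highest r with T and NK cell markers (0.63, rho 0.56) and macrophage markers (0.58, rho 0.58). NLRP3 also followed the T and NK markers (0.52) and ran against smooth muscle (-0.58). Its r with neutrophil markers was 0.00 (rho -0.16, and r -0.30 without the 2 farthest arrays). Of those markers S100A8, S100A9 and TREM1 had mean values below 5, and S100A12 ranged from 3.92 to 10.28.

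**Figure D4:**
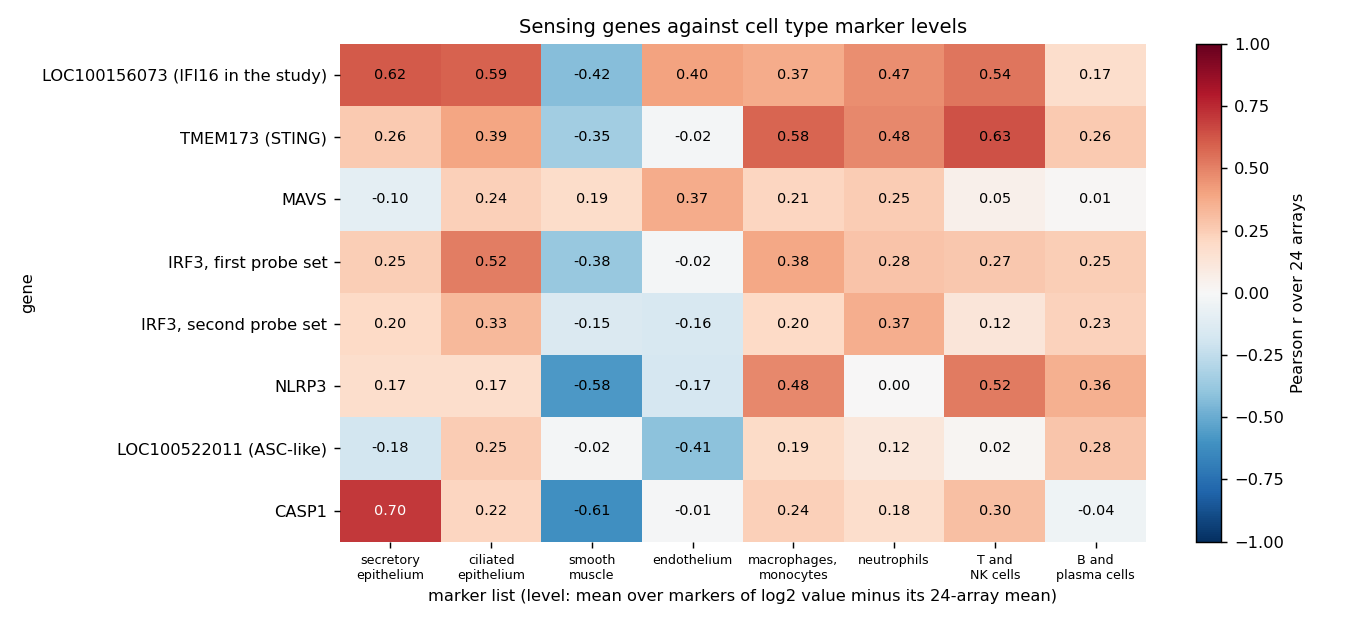
Pearson r over 24 arrays between 8 probe sets (rows) and the levels of 8 cell type marker lists (columns). The highest value is that of CASP1 with secretory epithelium (0.70), the lowest that of CASP1 with smooth muscle (-0.61), and MAVS is within -0.10 and 0.37 in every column.

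The secretory level spanned -1.13 to 1.15 among control arrays, -1.72 to 1.08 among mated arrays and -1.25 to 1.18 among SP-infused arrays. Control replicate 5 was the highest of its group in secretory and ciliated level and in LOC100156073, CASP1 and IRF3. Mated replicate 3 was highest of its group in 5 of the 8 probe sets, LOC100156073, TMEM173, NLRP3 and both of IRF3, and in 4 of the 8 marker lists, among them neutrophils (1.39) and T and NK cells (0.78). SP-infused replicate 3 was highest of its group in 5 probe sets and in the secretory level (1.18). The median secretory level was -0.20 in control, 0.09 in mated and 0.48 in SP-infused arrays. The median ciliated level was -0.04, -0.22 and -0.04 in the same order. All 5 ciliated markers had the lower mean in mated than in control arrays (median -0.31), beside 58.5% of all genes. Of the 6 secretory list markers 4 did so (median -0.18), with OVGP1 (1.57) and MUC1 (0.20) higher. The part of tissue composition in the group differences was not tested.

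**Figure D5:**
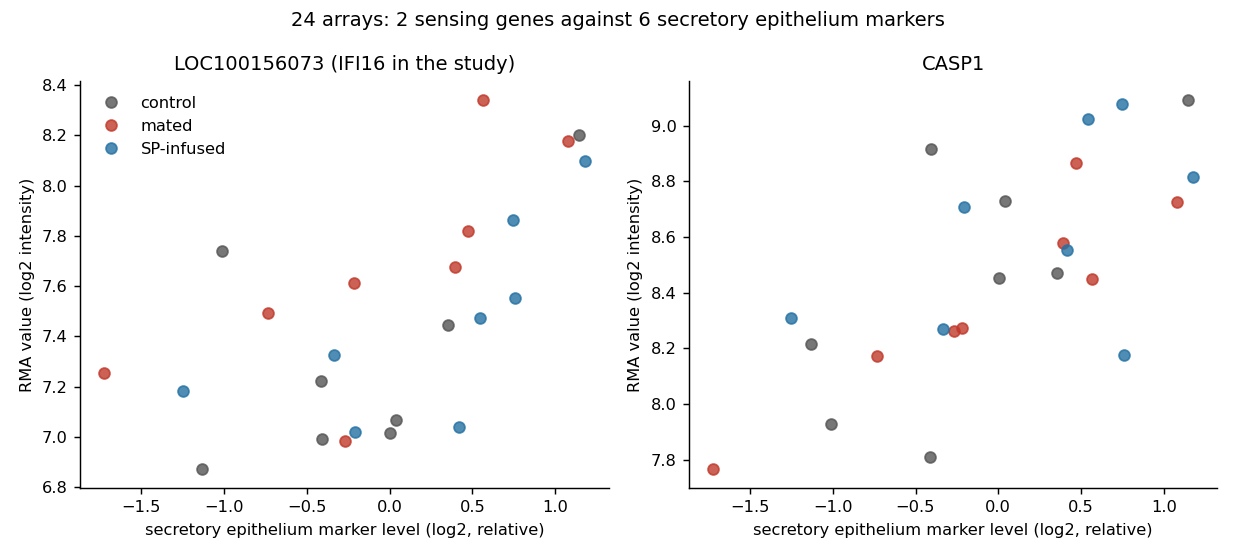
Values of LOC100156073 and CASP1 (log2 intensity, y axes) in 24 arrays against the level of the secretory epithelium list (x axes), coloured by group. General epithelial genes are among the 6 markers of that list. Both genes shown tend to be higher where the secretory level is higher (r 0.62 and 0.70). The control array at the upper right of each panel is control replicate 5.

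Between the genes themselves, LOC100156073 and TMEM173 had an r of 0.64 (rho 0.65) over the 24 arrays. MAVS had an r of 0.43 (rho 0.48) with TMEM173 and -0.39 with CASP1. LOC100522011 followed the second IRF3 probe set (0.68, rho 0.67) more than any other of the 8. With the group means subtracted its r was 0.56 with the second and 0.59 with the first IRF3 probe set. The 5 genes of the array with the highest r to LOC100156073 were CIPC, a repressor of the circadian factor CLOCK (0.85), SCGB3A1, a secretoglobin made by airway secretory cells in human (0.85), RARB, a retinoic acid receptor (0.84), GPX2, an epithelial glutathione peroxidase (0.83), and PDE6C, a phosphodiesterase of cone photoreceptors (0.82). With the group means subtracted they were PDE6C (0.88), C16H5orf49, SCGB3A1, LRRC36 and CIPC (0.85 each). None of these 7 genes differed between groups at an unadjusted p under 0.05, and SCGB3A1 was 0.38 above control in mated arrays.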

How the data were processed

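RNA of sow UTJ tissue was extracted with Trizol and hybridised to 24 Affymetrix Porcine Gene 1.0 ST arrays, 8 per group. The deposited values are log2 intensities that the authors made with RMA, and by their notes they compared groups with limma, with no versions given. The values were used without further normalization. An array has no depth of reads. The precision rests on the number of sows as well as arrays, with 4 sows behind the 8 arrays of a group. Of 27558 probe sets, 13327 carried 1 symbol, 357 several and 13874 none.

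In R 4.3.3 with limma 3.58.1, a mean per group was fitted over 24 arrays with empirical Bayes moderation, and the p-values of each of 3 comparisons were adjusted (Benjamini-Hochberg) over the probe sets of the array. Single values were also tested by two-sided exact permutation over 12870 splits, unadjusted. These splits were of arrays and not of sows. The steps were tested on simulated data. Alternatives were pairwise fits, a minimum mean of 5, equal array medians, cyclic loess, a trended robust prior, weighted arrays, a block for the replicate number, each array left out, and the mean of a gene's probe sets. The lower IRF3 probe set and the permutation without control replicate 1 were added after seeing the data.

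Named genes are all measured members, the 2 genes of each pathway list with the lowest p in each comparison with control, all those at an unadjusted p under 0.05, and the 5 nearest to LOC100156073 by r in each way. The rule named IFI16 there, and LOC100156073 stood in for it. LOC100156073 and LOC100522011, MB21D1 and those past p 0.05 beyond the rule (RHBDF2 and the 3 genes between mated and SP-infused) were chosen after their values were seen. Members and lists were chosen with earlier results of these data known.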

Additional observations from a re-analysis of the deposited data

How the results depend on the processing

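Over 24 results, 8 probe sets in 3 comparisons, other settings gave 219 values, of which 5 changed sign, and leaving out arrays gave 576, of which 9 did. None had an adjusted p under 0.05. For NLRP3 the SP-infused minus control difference was 0.022 with equal array medians and 0.069 with cyclic loess, for LOC100522011 it was 0.0027 with cyclic loess, and for IRF3 it was -0.019 as the mean of its probe sets and -0.084 on the lower one (chosen after seeing the data). The cause was not tested. Without 1 array, CASP1 for mated minus control ranged from -0.16 to 0.026, NLRP3 for SP-infused minus control from -0.11 to 0.087 and IRF3 from -0.020 to 0.12. Of the 5 members, 1 (MAVS) passed an unadjusted p of 0.05 for mated against control with equal array medians, with array weights and with the replicate block, and 0 passed for mated against SP-infused in pairwise fits. The replicate numbers were not taken as pairs, since same-numbered arrays deviated together with an r over 0.1 in 4 of 8, 3 of 8 and 2 of 8 pairs. Leaving out 1 array gave 0 to 1 members for mated against control and 0 to 1 for mated against SP-infused. With a minimum mean of 5 and so fewer genes tested, 811 and 362 genes passed this level for mated and SP-infused against control, in place of 1265 and 561. Without 1 array these counts were 922 to 1651 and 349 to 892, lowest without control replicate 1 and highest without control replicate 5, and 235 to 585 for mated against SP-infused (409 with all), lowest without SP-infused replicate 6 and highest without mated replicate 2. Probe sets at an adjusted p under 0.05 for mated against control were 0 to 2, with 2 without control replicate 7. With 8 arrays from 4 sows a group, each array a separate unit, the median standard error over genes was 0.12 on the log2 scale. This error may be too small where arrays share a sow.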
